A study of Mus musculus with 6 samples.

Results

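Interleukin-6 (Il6), the chains of its receptor (Il6st and Il6ra) and the Janus kinases that bind cytokine receptors (Jak1, Jak2, Jak3 and Tyk2) were followed in lung group 2 innate lymphoid cells (ILC2s) of WT and SIRPα KO mice. These 7 genes were chosen by name from the 17831 genes of the bulk RNAseq count table, with earlier results of these data known. The study had already reported Il6 and Jak1 as upregulated in SIRPα-deficient ILC2s. All 7 were in the table, and 6 passed the filter on low counts. The data comprised 3 libraries labelled WT (genotype CB57BL/6) and 3 labelled SIRPα KO (genotype SIRPalphatm1Ynliu/J). Both groups came from age- and sex-matched mice of 6 to 8 weeks that received 0.5 μg of rmIL-33 by the intranasal route on 3 days, so the controls were also IL-33-activated and no group of resting cells was measured. ILC2s were sorted on day 4 as CD45+ lineage-negative ST2+ CD127+ cells and kept in rmIL-2 and rmIL-7, each at 10 ng/mL, for 18 h in one place of the study's text and 24 h in another. The allele is carried by every cell of the mouse and not by ILC2s alone, and the sources used here do not say whether WT and SIRPα KO mice were littermates or whether mice were pooled.

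IL-6 is a secreted cytokine that binds IL-6Rα, encoded by Il6ra, and this pair then joins the shared signalling chain gp130, encoded by Il6st. Cells with gp130 but little IL-6Rα can still respond when IL-6Rα shed from other cells carries IL-6 to them, which is called trans-signalling. Receptors of this kind have no kinase activity of their own and rely on JAKs held at their cytoplasmic tails, which phosphorylate STAT proteins. gp130 works with JAK1, JAK2 and TYK2, whereas JAK3 pairs with the common γ chain used by IL-2 and IL-7, the cytokines of the culture, together with JAK1.

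Library depth ranged from 13980499 to 19051507 reads counted on genes. The targeted gene, Sirpa, measured 8.57, 6.83 and 4.83 CPM (reads scaled to a library of 1000000) in WT and 3.07, 4.46 and 1.74 CPM in SIRPα KO, lower in each SIRPα KO library than in each WT library. Its log2 fold change of -1.12 did not pass edgeR's quasi-likelihood test (adjusted p = 0.116), and which part of the gene the allele removes is not given in the sources used here. The summed level of 15 ILC2 markers was 15510 to 16670 CPM in WT against 21310 to 21860 CPM in SIRPα KO. Il5 made up most of it (9192 CPM in WT, 12950 CPM in SIRPα KO), and its members did not move one way. Of the 15, all measured, 3 were called higher (Il5, Il2ra and Ptprc) and 2 lower (Id2, log2 fold change -0.65, and Thy1, -2.06). Of all tested genes, 11.7% were called. The labels give WT replicates 1 and 2 one library code and SIRPα KO replicates 2 and 3 another, so n counts libraries, and p values may measure technical spread in part. WT replicates 1 and 2 were closer to each other (mean chi-square per gene of 37.8) than either was to WT replicate 3 (104 and 84.6), whereas the SIRPα KO pair (12.6) lay within the range of the other SIRPα KO pairs (9.26 and 14.4). All of these exceed counting noise, as amplified repeats of 1 sample can too, so they do not show separate samples, and the replicates of the labels were kept. WT libraries were the more variable, with a biological coefficient of variation of 38.0% against 15.2% in SIRPα KO. Fold changes followed transcript length, from a median log2 value of -0.55 in the shortest of 10 length classes to 0.47 in the longest. Among the 7 genes, Il6 lay in class 3 (class median -0.11), Jak3 in class 7 (0.21), Jak1, Jak2 and Tyk2 in class 8 (0.29), and Il6st and Il6ra in class 10. In bulk RNA, fewer cells of a type and less RNA per cell cannot be told apart.

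Il6 lies on chromosome 5 at 30013114 to 30019981 of mm10 (GENCODE M21), on the plus strand. The 250 bases before its RefSeq start, chr5:30012864-30013113 of GRCm38.p6, are shown because several factors described further on are known to act through this stretch. Capitals mark matches to motifs searched on both strands.

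Il6 promoter: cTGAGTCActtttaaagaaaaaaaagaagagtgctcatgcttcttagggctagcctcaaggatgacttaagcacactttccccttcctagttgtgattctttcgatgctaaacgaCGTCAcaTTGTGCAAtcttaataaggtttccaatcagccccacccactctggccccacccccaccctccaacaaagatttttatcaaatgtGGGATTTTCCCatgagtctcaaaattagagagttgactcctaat

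Of the motif kinds searched, 4 of 5 had a match. An AP-1 match (TGANTCA) spanned positions -249 to -243 from the start, and a half-site of the cAMP response element (CGTCA) lay at -135 to -131. A C/EBP match (TTGNGNAA) followed at -128 to -121. Matches to the NF-κB motif GGGANNNNCC lay on the plus strand at -44 to -35 and on the minus strand at -43 to -34, overlapping by all but 1 base at each end. No match to the STAT motif TTCNNNGAA was in these letters. Across 32851 RefSeq promoters cut to the same 250 bases, 17.6% held the NF-κB motif, 6.75% the AP-1 motif, 11.7% the C/EBP motif, 17.8% the CRE half-site and 7.02% the STAT motif. All 4 kinds found at Il6 occurred together in 8 of these promoters (0.0244%), but the motifs were picked because they are known at Il6, so this share is only a description. In the other 6 genes, matches were limited to Il6ra (NF-κB, C/EBP and CRE half-site), Jak1 (CRE half-sites on both strands, overlapping at -101 to -94) and Tyk2 (NF-κB at -30 to -21).

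Il6 mRNA was higher in SIRPα KO ILC2s. Il6 measured 8.74, 9.67 and 12.2 CPM in WT replicates 1 to 3, from 152, 136 and 184 reads. In SIRPα KO it measured 35.7, 35.7 and 35.5 CPM, from 559, 680 and 573 reads. The lowest SIRPα KO library was 2.92 times the highest WT library, and the groups were far apart. The WT mean was 10.2 ± 1.78 CPM (SD, n = 3). The SIRPα KO mean was 35.6 ± 0.098 CPM (SD, n = 3), 3.50-fold higher. The log2 fold change was 1.81 (SE 0.19, adjusted p = 0.00586, edgeR's quasi-likelihood test). Il6 ranked 28 by p among the 13623 genes tested, of which 11.7% passed the test, 5.94% higher and 5.81% lower in SIRPα KO. Il6 was not an abundant transcript, and its average level was at percentile 49.5 of the tested genes. The SIRPα KO libraries lay closer together (SD 0.098 CPM) than counting error alone gives (1.46 CPM per library on average), so their spread understates the error of this mean. The call was lost without any 1 of the SIRPα KO libraries (adjusted p 0.0532 to 0.0666) and with libraries of one code summed (adjusted p = 0.130), while the log2 fold change stayed between 1.63 and 1.96 in all 13 other fits.

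**Figure D1:**
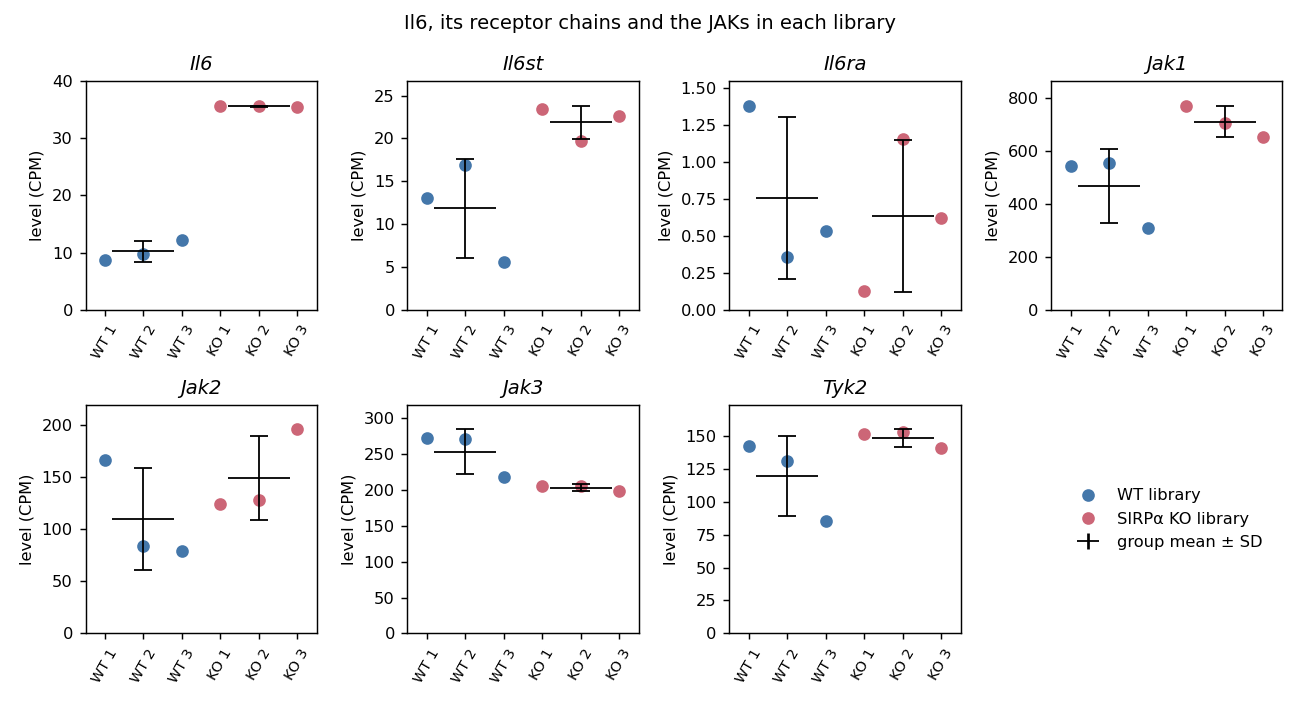
Levels of the 7 genes in CPM (y axes, starting at 0, with a scale for each gene) in the 3 WT (blue) and 3 SIRPα KO (red) libraries, with the group mean ± SD in black. The 3 SIRPα KO libraries sit at 35.5 to 35.7 CPM for Il6 against 8.74 to 12.2 CPM in WT, whereas Jak2, Tyk2 and Il6ra overlap between the groups.

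Macrophages, B cells, mast cells and fibroblasts can also make IL-6, so markers of such cells were measured beside it. The summed level of 9 macrophage and monocyte markers was 45.2 to 128 CPM in WT against 79.7 to 122 CPM in SIRPα KO. WT replicate 3 had the highest sum of the 6 libraries, and the other WT libraries had 45.4 and 45.2 CPM, lower than each SIRPα KO library. Of these markers, only Itgam passed the test, at 1.92 CPM in WT against 11.2 CPM in SIRPα KO (log2 fold change 2.55, adjusted p = 0.0454, edgeR's quasi-likelihood test). Without WT replicate 3, Itgam had an adjusted p of 0.0673, and Lyz2, the lysozyme of macrophages, passed as higher in SIRPα KO (log2 fold change 1.497, adjusted p = 0.00554, against 0.55 and 0.473 with all libraries). Marco, another of these markers, also passed there as higher (6.69, adjusted p = 0.0297, edgeR's quasi-likelihood test, against -1.465 and 0.566 with all libraries). Its reads were few, 0, 0 and 98 in WT and 18, 12 and 9 in SIRPα KO. Lyz2 was the largest part of the sum (42.0 CPM in WT, 61.6 CPM in SIRPα KO). Mrc1 had 0, 3 and 4 reads in WT against 15, 27 and 15 in SIRPα KO, without passing. Fcgr1, filtered out, had 0, 0 and 0 reads against 8, 12 and 6. Cd14 was also higher in each SIRPα KO library (means of 1.02 and 1.95 CPM), without passing. Adgre1 and Csf1r overlapped between the groups, and Cd68 was lower on average in SIRPα KO, with overlap (16.6 and 13.4 CPM). The 6 B cell markers summed to 216 to 479 CPM in WT against 23.1 to 84.6 CPM in SIRPα KO, opposite in direction to Il6. The 6 mast cell and basophil markers summed to 67.3 to 124 CPM in WT against 165 to 190 CPM in SIRPα KO, the same direction as Il6. Most of that sum was Kit, at 91.5 CPM in WT against 173 CPM in SIRPα KO (adjusted p = 0.0892, edgeR's quasi-likelihood test). The more specific Fcer1a, Ms4a2 and Mcpt4 had at most 13 reads in any library. Mcpt8 had 82, 43 and 170 reads in WT against 29, 0 and 0 in SIRPα KO. Cpa3 had 41, 67 and 144 reads in WT against 118, 15 and 14 in SIRPα KO. Neither Mcpt8 nor Cpa3 passed. None of the 6 fibroblast markers was in the table used here. T cell markers summed to 17.99 to 23.5 CPM in WT against 4.78 to 5.56 CPM in SIRPα KO, dendritic cell markers to 46.4 to 60.1 and 47.3 to 55.9 CPM, and neutrophil markers to at most 0.93 CPM. Most of the T cell sum was Cd3g (18.8 and 3.42 CPM), while Cd3e measured 1.36 and 1.09 CPM (adjusted p = 0.780, edgeR's quasi-likelihood test). Cd3d, Trac and Cd4 did not pass the filter on low counts. Most of the dendritic cell sum was Xcr1 (49.1 and 43.7 CPM), while Itgax measured 4.46 and 7.38 CPM and Zbtb46 1.765 and 1.034 CPM. The 5 epithelial and endothelial markers, of which 4 were in the table, summed to 60.7 to 85.9 CPM in WT against 46.8 to 107 CPM in SIRPα KO. Pecam1, an adhesion molecule of endothelium and some leukocytes, rose from 22.8 to 41.7 CPM (log2 fold change 0.87, adjusted p = 0.0421), and Epcam, an epithelial adhesion molecule, fell from 13.4 to 5.89 CPM (-1.18, adjusted p = 0.0354, edgeR's quasi-likelihood test). Scgb1a1, a secretory protein of club cells, had 1 read in SIRPα KO replicate 1 and 1073 and 981 reads in replicates 2 and 3. The part of any of these cells in the Il6 difference was not tested.

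Il6st, which encodes gp130, lies on chromosome 13 (112464070 to 112510086, plus strand). It measured 13.1, 16.9 and 5.56 CPM in WT against 23.4, 19.7 and 22.6 CPM in SIRPα KO, from 84 to 375 reads. Each SIRPα KO library was above each WT library, but WT spread over a 3.04-fold range, with WT replicate 3 lowest. The log2 fold change of 0.89 (SE 0.37) did not pass edgeR's quasi-likelihood test (adjusted p = 0.144). Leaving out WT replicate 3 gave 0.55 and leaving out WT replicate 2 gave 1.23. A fit that corrects for the length and GC content of transcripts gave 0.44. Il6st has a transcript of 8678 bases, at percentile 96.2 of length, where the class median was 0.47.

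Il6ra, which encodes the chain that binds IL-6 itself, lies on chromosome 3 (89864059 to 89913196, minus strand) and was nearly undetected. It had 24, 5 and 8 reads in WT and 2, 22 and 10 reads in SIRPα KO. Over the group this was 0.795 CPM in WT (exact Poisson 95% interval 0.560 to 1.10 CPM) and 0.669 CPM in SIRPα KO (0.463 to 0.935 CPM), intervals that cover counting error only. The gene did not pass the filter on low counts, and a difference was not detectable at this depth. Without the filter its log2 fold change was -0.23 with an SE of 0.93. Per kilobase of transcript, Il6st stood at 1.36 ± 0.67 (SD, n = 3) in WT and 2.52 ± 0.23 in SIRPα KO, and Il6ra at 0.0874 and 0.0734 CPM per kb. In every library the signalling chain was the more abundant of the receptor pair, with Il6ra at 0.00549 to 0.106 of the Il6st level per kb. The log2 ratio of Il6ra to Il6st differed by -1.53 between the groups, with overlap (exact permutation test, two-sided p = 0.3, n = 3 in each group). With 3 libraries against 3 this test cannot go below 0.1.

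Jak1, the kinase shared by gp130 and the IL-2 and IL-7 receptors, lies on chromosome 4 (101152367 to 101265282, minus strand) and was among the most abundant transcripts, at percentile 98.5. It measured 543, 553 and 307 CPM in WT against 772, 707 and 655 CPM in SIRPα KO. The groups did not overlap, and WT replicate 3 was again the lowest library. The log2 fold change of 0.60 (SE 0.21) did not pass edgeR's quasi-likelihood test (adjusted p = 0.101). It passed without WT replicate 3, where the difference itself was smaller (0.38, adjusted p = 0.0172), and with DESeq2 (0.63, adjusted p = 0.0351). The study's methods name DESeq for its differential analysis, so its report of Jak1 as upregulated rests on another test than edgeR's. After the correction for length and GC content it was 0.25. Raver2 overlaps Jak1 on the opposite strand, and its reads came to 0.398% to 1.014% of those of Jak1.

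Jak2, which gp130 and receptors such as the shared β chain of IL-3, IL-5 and GM-CSF use, lies on chromosome 19 (29251828 to 29313080, plus strand). It measured 166, 84.4 and 79.1 CPM in WT against 124, 128 and 196 CPM in SIRPα KO. One library of each group stood above the other libraries of its group, WT replicate 1 and SIRPα KO replicate 3, and the groups overlapped. WT replicates 1 and 2, which carry one code, lay at the top and near the bottom of the WT range. The log2 fold change was 0.44 (SE 0.31, adjusted p = 0.359, edgeR's quasi-likelihood test). It ranged from 0.21 without SIRPα KO replicate 3 to 0.87 without WT replicate 1, and was 0.0034 after the correction for length and GC content.

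Jak3, the partner of the common γ chain, lies on chromosome 8 (71676296 to 71690575, plus strand) and was the only tested member with a negative fold change. It measured 272, 271 and 218 CPM in WT against 206, 206 and 199 CPM in SIRPα KO. Each SIRPα KO library was below each WT library, by a narrow margin at WT replicate 3. The log2 fold change was -0.32 (SE 0.12, adjusted p = 0.116, edgeR's quasi-likelihood test). It passed without WT replicate 3 (-0.41, adjusted p = 0.00735) and with upper quartile scaling (-0.41, adjusted p = 0.0449), a scaling that moved the median of all tested genes from -0.03 to -0.13. Insl3, which overlaps Jak3 on the same strand, had at most 0.306% of its reads.

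Tyk2, used by gp130 and by the receptors of IL-10, IL-12 and type I interferons, lies on chromosome 9 (21104068 to 21131243, minus strand). It measured 142, 131 and 85.4 CPM in WT against 151, 153 and 141 CPM in SIRPα KO. SIRPα KO replicate 3 lay below WT replicate 1, so the groups overlapped. The log2 fold change was 0.31 (SE 0.19, adjusted p = 0.290, edgeR's quasi-likelihood test). It was lowest without WT replicate 3 (0.13) and highest without WT replicate 1 (0.46). The length and GC correction gave 0.20.

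Of the 6 genes tested, 1 passed (Il6, higher), beside 11.7% of all tested genes. Groups did not overlap for 4 of the 6, where 42.8% of all tested genes did not overlap. DESeq2 called 2 of the 6, against 26.9% of its genes, and the fit without WT replicate 3 called 3 of the 6, against 18.4%. Their median log2 fold change was 0.52, against -0.03 over all genes tested, and 0.23 after the correction for length and GC content.

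**Figure D2:**
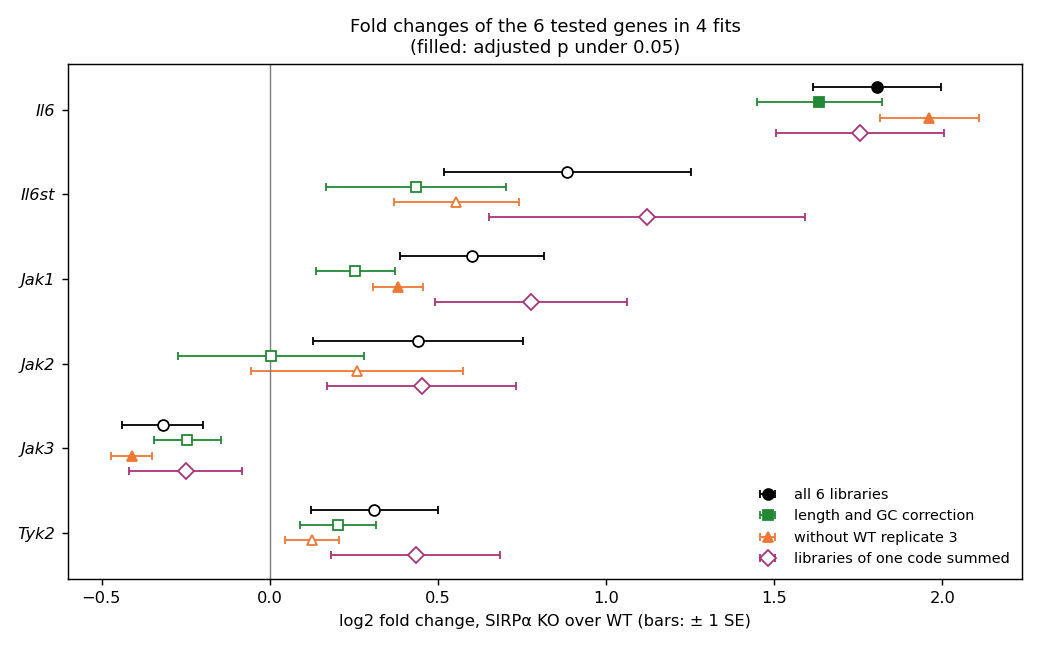
Log2 fold changes (x axis, SIRPα KO over WT, bars ± 1 SE) of the 6 tested genes in 4 fits, with filled symbols where the adjusted p was under 0.05. Il6 stays between 1.63 and 1.96 in all 4, Jak2 moves from 0.44 to 0.0034 with the length and GC correction, and Jak3 is the gene to the left of 0.

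Levels can be compared between genes per kilobase of transcript. In WT the order was Jak1 (95.4 ± 28.4 CPM per kb, SD, n = 3), Jak3 (62.7 ± 7.70), Tyk2 (24.8 ± 6.25), Jak2 (21.9 ± 9.73), Il6 (4.35 ± 0.76), Il6st and Il6ra. Tyk2 and Jak2 overlapped, as did Jak1 and Jak3 over the group, although Jak1 was 1.17 to 1.68 times Jak3 within each WT library. In SIRPα KO the order was Jak1 (145 ± 11.96 CPM per kb), Jak3 (50.3 ± 1.06), Tyk2 (30.7 ± 1.39), Jak2 (29.7 ± 8.04), Il6 (15.2 ± 0.042), Il6st and Il6ra. There Jak1 was 2.72 to 3.09 times Jak3, and Tyk2 and Jak2 again overlapped.

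The share of each kinase in JAK mRNA sets Jak1 against Jak3. As a share of the 4 JAKs per kb, Jak1 made up 46.1%, 50.4% and 41.8% in WT and 59.6%, 57.1% and 53.2% in SIRPα KO. Jak3 made up 27.9%, 30.0% and 35.9% in WT and 19.3%, 20.2% and 19.6% in SIRPα KO. Neither kinase's shares overlapped between the groups. Tyk2 held a nearly constant share, 12.1% ± 0.24 (SD, n = 3) in WT and 12.03% ± 0.50 in SIRPα KO, and Jak2 varied from 7.50% to 15.6% across the libraries. Shares within a library do not depend on how libraries are scaled to each other.

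The log2 ratio of Jak1 to Jak3 was 0.998, 1.03 and 0.50 in WT and 1.91, 1.78 and 1.72 in SIRPα KO, a difference of 0.96. This ratio, that of Jak1 to Tyk2 (difference 0.31) and that of Jak3 to Tyk2 (difference -0.66) did not overlap between the groups. Each reached the smallest p of an exact permutation test of 3 libraries against 3 (two-sided p = 0.1, adjusted p = 0.233 over 7 ratios), so this test could not call them at 3 libraries a group. The ratio of Jak2 to Jak3 differed by 0.81 with overlap (exact permutation p = 0.2), and those of Jak1 to Jak2 (0.15, p = 0.9) and Jak2 to Tyk2 (0.15, p = 0.7) had no stable sign when libraries were left out. The Jak1 log2 fold change exceeded that of Jak3 by 0.92 in edgeR's fit, by 0.79 without WT replicate 3, by 1.03 with libraries of one code summed and by 0.50 after the correction for length and GC content. The sum of the 4 JAKs was 240, 224 and 150 CPM per kb in WT and 264, 252 and 251 CPM per kb in SIRPα KO.

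**Figure D3:**
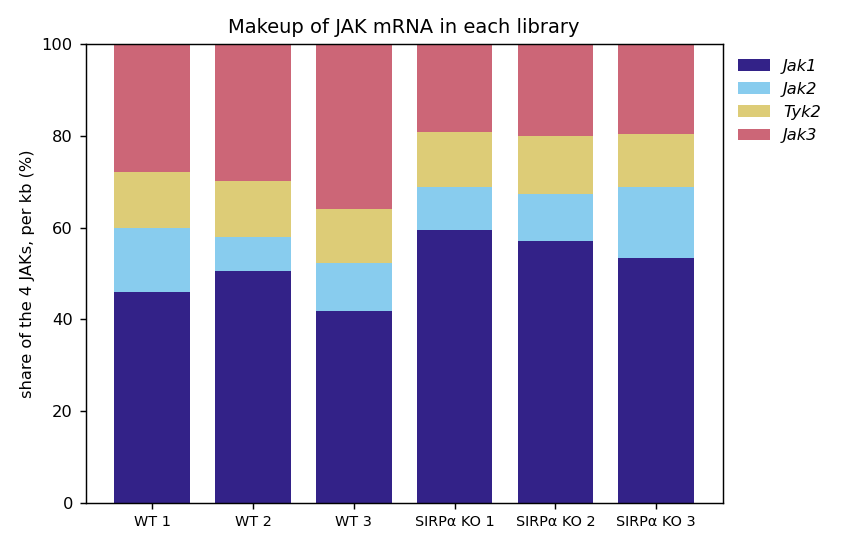
Share of each kinase in the summed per-kb level of the 4 JAKs (y axis, percent) in each library (bars). Jak1 runs from 41.8% to 50.4% in WT and 53.2% to 59.6% in SIRPα KO, while Jak3 runs from 27.9% to 35.9% and from 19.3% to 20.2%.

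Genes around this pathway were grouped in 8 lists of 91 genes, of which 80 were in the table and 72 were tested. Groups did not overlap for 33 of the 72, beside 42.8% of all tested genes. Of the 72, 4 rose and 5 fell in SIRPα KO (9 of 72 passing, beside 11.7% of all genes), and their median log2 fold change was 0.08. All 9 kept their sign in every fit, but 0 passed edgeR's test with libraries of one code summed or without any 1 SIRPα KO library, where all 9 had an unadjusted p under 0.05, and 5 (Il2ra, Nfkb1, Rel, Nfkbiz and Arid5a) passed after the correction for length and GC content.

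Of 4 tested genes among the other cytokines of the IL-6 family, 0 passed edgeR's quasi-likelihood test (1 at an unadjusted p under 0.05, 0 with DESeq2, median -0.24). Osm, which encodes oncostatin M, was the most abundant at 119 ± 17.0 CPM in WT against 128 ± 9.25 CPM in SIRPα KO, a level above that of Il6. Ebi3, a subunit of IL-27, measured 45.6 ± 11.4 CPM and 31.2 ± 5.604 CPM. Of the other receptor chains of the gp130 family, Il27ra (123 ± 5.44 CPM in WT, 114 ± 10.0 CPM in SIRPα KO) and Il11ra1 (4.65 ± 4.54 and 3.27 ± 0.52 CPM) were tested and did not pass (0 at an unadjusted p under 0.05, 0 with DESeq2, median -0.31). The proteases that shed IL-6Rα had positive values that did not pass with all libraries. Adam10 measured 125, 102 and 35.1 CPM in WT against 161, 168 and 147 CPM in SIRPα KO (adjusted p = 0.171), and Adam17 measured 133, 108 and 64.7 CPM and 146, 151 and 155 CPM (adjusted p = 0.148, edgeR's quasi-likelihood test). All 4 tested genes of this shedding list were positive (median 0.46), beside 6593 of all 13623 tested genes. Of the 4, 0 passed, 1 was at an unadjusted p under 0.05 and DESeq2 called 0. The list median was 0.28 after the correction for length and GC content. Without WT replicate 3 it was 0.40, and Rhbdf1 turned negative (-0.21). In that fit Adam10 passed with a smaller difference (0.49, adjusted p = 0.0276, edgeR's quasi-likelihood test).

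Among 18 tested chains of cytokine receptors that signal through JAKs, 1 rose and 1 fell, beside 11.7% of all tested genes passing. The median was -0.12, and -0.14 after the length and GC correction. DESeq2 called 6, 3 of them higher, beside 26.9% of all its genes. Il2ra, the chain that gives the IL-2 receptor high affinity but itself binds no JAK, rose from 2064, 2054 and 1406 CPM in WT to 3473, 3464 and 3417 CPM in SIRPα KO (log2 fold change 0.91, SE 0.15, adjusted p = 0.0154, edgeR's quasi-likelihood test). Crlf2, the receptor chain for TSLP, fell from 19.03, 19.9 and 30.2 CPM to 10.99, 10.9 and 9.55 CPM (log2 fold change -1.14, SE 0.24, adjusted p = 0.0267). The groups did not overlap for either gene. After the correction for length and GC content Il2ra was at 0.53 and still passed, whereas Crlf2 was at -0.51 (adjusted p = 0.145), and Crlf2 lost its call in 6 of 13 other fits. Il2rg, the common γ chain that JAK3 binds, measured 1540, 1306 and 1230 CPM in WT against 1178, 1089 and 1082 CPM in SIRPα KO, lower in each SIRPα KO library as Jak3 was, without passing (-0.28, adjusted p = 0.117). Il2rg passed without WT replicate 3 (-0.34) and with upper quartile scaling (-0.38), and was at -0.15 after the length and GC correction.

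Among 13 inhibitors and phosphatases of JAKs, 1 rose and 2 fell, beside 11.7% of all tested genes passing. The median was 0.06, and -0.25 after the length and GC correction. DESeq2 called 6, of which 4 were higher (Ptpn2, Ptpn6, Ptprc and Stam), beside 26.9% of all its genes. Socs1, which blocks JAK catalytic activity and is induced by cytokine signalling, fell from 401, 396 and 583 CPM in WT to 274, 278 and 304 CPM in SIRPα KO (log2 fold change -0.69, SE 0.16, adjusted p = 0.0367, edgeR's quasi-likelihood test). Socs3, the feedback inhibitor that binds gp130, fell from 70.7, 80.0 and 91.4 CPM to 51.9, 57.6 and 55.7 CPM (log2 fold change -0.55, SE 0.14, adjusted p = 0.0461). Neither gene's groups overlapped. Socs1 lost its call in 5 of 13 other fits, that with the length and GC correction among them (-0.55, adjusted p = 0.0846, edgeR's quasi-likelihood test). Socs3 lost its call in 8 of 13, that without WT replicate 2 among them. Ptprc, the phosphatase CD45, rose from 379, 445 and 215 CPM to 667, 638 and 630 CPM (log2 fold change 0.90, adjusted p = 0.0484) and lost its call in 7 of 13, that without WT replicate 1 among them. It was at 0.39 after the correction for length and GC content. Cish, a target of STAT5, measured 622 ± 67.8 CPM in WT against 554 ± 17.0 CPM in SIRPα KO and did not pass.

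Of 8 tested signal transducers, 0 passed edgeR's quasi-likelihood test (2 at an unadjusted p under 0.05), beside 11.7% of all tested genes. The median was 0.22, and -0.028 after the length and GC correction. DESeq2 called 2, namely Stat5a and Gab2, beside 26.9% of all its genes. Stat3, the main STAT downstream of gp130, measured 380, 353 and 257 CPM in WT against 373, 370 and 346 CPM in SIRPα KO, with overlap (log2 fold change 0.14, SE 0.15, adjusted p = 0.560, edgeR's quasi-likelihood test). Its sign turned after the correction for length and GC content (-0.17). Grb2, an adaptor toward the MAPK pathway, measured 248 ± 42.8 CPM in WT against 194 ± 26.4 CPM in SIRPα KO. The study listed Stat3 among the genes upregulated in SIRPα-deficient ILC2s. mRNA levels carry no information on phosphorylation, which the study measured by flow cytometry and reported as increased for STAT3 in SIRPα KO ILC2s.

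Of 13 transcription factors listed as regulators of Il6, 2 rose and 1 fell, beside 11.7% of all tested genes passing. The median was 0.08, and -0.029 after the length and GC correction. DESeq2 called 5, 2 of them higher, beside 26.9% of all its genes. Rel, the subunit c-Rel, rose from 8.34, 9.67 and 3.64 CPM in WT to 21.8, 22.7 and 19.3 CPM in SIRPα KO (log2 fold change 1.56, SE 0.35, adjusted p = 0.0312, edgeR's quasi-likelihood test). Nfkbiz, which encodes IκBζ, a nuclear cofactor for Il6 transcription, rose from 30.0, 36.6 and 27.6 CPM to 56.7, 55.3 and 65.7 CPM (log2 fold change 0.92, SE 0.17, adjusted p = 0.0190). Nfkb1, the gene of p105 and p50, fell from 337, 335 and 317 CPM to 205, 190 and 194 CPM (log2 fold change -0.75, SE 0.10, adjusted p = 0.0101). Groups were separate for all 3, and Rel lost its call also without WT replicate 1. Rela, the subunit p65, measured 148 ± 48.1 CPM in WT against 116 ± 13.2 CPM in SIRPα KO and did not pass (-0.36, adjusted p = 0.292). Gata3 (946 ± 119 CPM in WT, 1012 ± 32.9 CPM in SIRPα KO) and Junb, an AP-1 subunit (384 ± 69.9 and 271 ± 6.57 CPM, adjusted p = 0.0537), were the most abundant of the list and did not pass. Junb passed in 4 of 13 other fits, DESeq2 among them, and was at -0.0092 after the length and GC correction. Rela and Cebpb were named after their values were seen. Cebpb, a C/EBP factor, had the lowest log2 fold change of the 72 (-2.17, SE 0.90, adjusted p = 0.142), with 52.7, 4.48 and 17.7 CPM in WT against 2.43, 2.99 and 11.4 CPM in SIRPα KO.

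Among 10 genes that control decay of Il6 mRNA, 1 fell and 0 rose, beside 11.7% of all tested genes passing. The median was 0.03, and -0.26 after the length and GC correction. DESeq2 called 2, both lower, beside 26.9% of all its genes. Arid5a, a protein that protects Il6 mRNA from decay, fell from 296, 241 and 213 CPM in WT to 122, 135 and 128 CPM in SIRPα KO (log2 fold change -0.97, SE 0.14, adjusted p = 0.0135, edgeR's quasi-likelihood test), without overlap and opposite in direction to Il6. Elavl1, which encodes the RNA-stabilizing protein HuR, measured 194 ± 36.9 CPM and 220 ± 29.7 CPM.

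**Figure D4:**
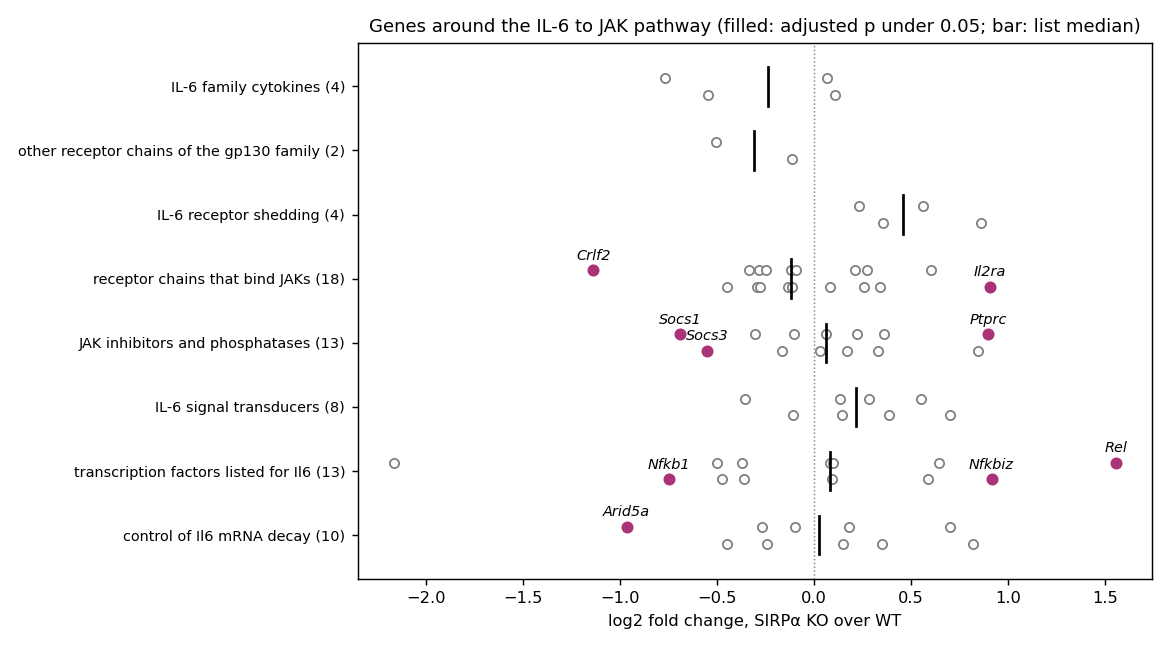
Log2 fold changes (x axis, SIRPα KO over WT) of the 72 tested genes in 8 lists (y axis, number tested in brackets), each circle 1 gene, filled and named where the adjusted p was under 0.05, with a bar at each list median. The 4 genes that rose (Rel, Nfkbiz, Il2ra and Ptprc) and the 5 that fell (Arid5a, Crlf2, Nfkb1, Socs1 and Socs3) lie in 4 of the lists.

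The genes most like each member over the 6 libraries were sought among the 9146 genes whose log2 CPM averaged 3 or more, by Pearson's r of log2 CPM, as a description of 6 points in 2 groups. For Il6 these were Rnps1-ps and Knop1 (r = 0.9995 and 0.997), with log2 fold changes of 2.47 and 0.67. Both were picked for following Il6 over these libraries, so their higher level in SIRPα KO comes with that choice. Rnps1-ps is listed as a pseudogene by RefSeq, and its reads could come from its parent gene. For Il6st they were Zfp280c and Calcrl (0.999 and 0.998), and for Jak1 they were Ipo9 and Txlna (both at least 0.998). For Jak2 they were Elavl1 and Atrn (0.992 and 0.990), for Tyk2 Ipp and Lrrc8c (both 0.998), and for Jak3 Sesn3 and Pvt1 (0.990 and 0.988). These values describe 6 libraries only, and no p was computed.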

How the data were processed

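Bulk RNAseq of sorted, cultured lung ILC2s was analysed (cDNA from 10 pg of RNA, amplified). The authors processed the reads in Partek and aligned them with STAR to mm10 with GENCODE M21. The submitters' processing notes give Partek 10.0 and STAR 2.7.8, and the study's methods give other versions. The deposited values are estimated counts per gene, not scaled for depth, and 57.3% to 61.3% of values in a library were whole. They were rounded here. Handling of strand and repeated genes is not given in the sources used here. The smallest gene total in the table is 10.

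The 7 genes, the gene lists, the motifs and the tests were chosen with earlier results of these data known. Genes passing edgeR's filterByExpr (10 reads in a median library, 15 in total) were scaled by TMM and compared by the quasi-likelihood test on genotype, with Benjamini-Hochberg adjustment over 13623 genes and a threshold of 0.05. The SE came from the F statistic. CPM per kb used the longest GENCODE M21 transcript. Symbols matched for 17400 genes directly and 214 by synonym, and 217 did not match. The length and GC correction used splines (5 degrees of freedom) of both properties, fitted per library as an offset. Promoters came from RefSeq (GRCm38.p6) and were found for all 7 genes. Named list genes were those passing, at most 5 a list, and the 2 most abundant. Alternatives were DESeq2, other scalings, no filter, a replicate block, summed libraries of one code and leaving out libraries. The fits of the lists (size factors, no filter, block) were added after the data were seen. Procedures were tested on simulated data. R 4.3.3, edgeR 4.0.16, limma 3.58.1, DESeq2 1.42.0 and matplotlib 3.10.9 were used. The study's single-cell, flow cytometry and human data were not used here.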

Additional observations from a re-analysis of the deposited data

How the results depend on the processing

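Il6 kept its sign in all 13 other fits. It was no longer past the threshold with libraries of one code summed (log2 fold change 1.76) or without any 1 SIRPα KO library, and leaving out libraries moved it from 1.71 to 1.96. Jak1 passed with DESeq2 (0.63), with a leave-one-out range of 0.38 to 0.74, and Jak3 passed with upper quartile scaling (-0.41), with a range of -0.41 to -0.26. Of the 6 tested members, 2 were called with DESeq2, 2 with upper quartile scaling and 0 with summed codes (2 at an unadjusted p under 0.05). When a library was left out, 0 to 3 were called (0 without any 1 SIRPα KO library, with 1 to 2 at an unadjusted p under 0.05). Of the 72 tested list genes, 9 passed in the report, 21 with DESeq2, 0 with summed codes and 0 to 19 without a library, 19 being without WT replicate 3. The list median became -0.0267 with upper quartile scaling and -0.0656 with the length and GC correction. Signs turned for the ratio of Jak1 to Jak2 (-0.0562 to 0.45 without a library) and of Jak2 to Tyk2 (-0.10 to 0.35), for Osm without WT replicate 1 (-0.0036, range up to 0.17), Il11ra1 without WT replicate 3 (0.68, range from -0.93), Stat3 without WT replicate 3 (-0.0068, range up to 0.25) and with the length and GC correction (-0.17), and for Gata3 (-0.029) and Elavl1 (-0.31) with that correction. The cause of these shifts was not tested. Over all genes tested, 1600 of 13623 passed in the report's fit, 1713 of 13623 with upper quartile scaling and 3214 of 11944 with DESeq2. Counts were 10 of 14581 with summed codes, 2606 of 14143 without WT replicate 3 and 16 to 17 without a SIRPα KO library. Deviations of same-numbered WT and SIRPα KO libraries had correlations of -0.14, 0.18 and 0.03, within the range of the other pairs (-0.26 to 0.23). With 3 libraries a group, these values cannot tell whether the numbers pair samples. With a replicate block 1118 genes passed, the Il6 log2 fold change was 1.82 (adjusted p = 0.018, edgeR's quasi-likelihood test), and Il6 was again the 1 member called. Depth limits Il6ra, with at most 24 reads in a library.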
